A study of Mus musculus with 12 samples.

Results

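The 9 genes described here encode the receptor for the cytokine LIF, the signalling proteins behind it, and products of STAT3 target genes: Lifr, Il6st, Jak1, Stat3, Socs3, Socs1, Pim3, Pim1 and Bcl3. They were picked by name, and each probe designed to a RefSeq transcript of them was taken, which gave 12 probes of 55681 on the array (3 for Lifr, 2 for Stat3 and 1 for each other gene). All 12 probes were well above background on all 12 arrays, so all 9 genes were among the 24457 genes tested. The probe with the highest mean stood for a gene. The series measured mouse embryonic stem cell RNA on 12 Agilent arrays of 1 colour. Nat1-null and wild-type cells were each grown in 2i+LIF or in LIF, with 3 arrays per combination. LIF was thus present in every group, and 2i adds an inhibitor of the kinase MEK and an inhibitor of the kinase GSK3. Nat1 is read here as the older name of Eif4g2, a translation factor related to eIF4G. The cells were a line kept on gelatin in ordinary stem cell medium per the labels. The parental line, the null allele and the number of clones are not given in the sources used here.

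LIF binds a receptor made of the chains encoded by Lifr and Il6st (gp130), and kinases of the JAK family held by these chains then phosphorylate STAT3. Phosphorylated STAT3 enters the nucleus and turns on genes that keep mouse embryonic stem cells undifferentiated, and also Socs3, whose product blocks the receptor and its kinases and so closes a feedback loop. MEK inhibition is known to reduce the differentiation signal from the FGF and ERK pathway, and GSK3 inhibition to raise Wnt signalling in these cells.

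STAT proteins bind DNA at paired TTC and GAA motifs, so the promoters of the 9 genes were read from RefSeq (build GRCm38.p6) and searched for TTCNNNGAA, which reads alike on both strands. The windows ran from 250 bases before to 50 bases after each annotated start, and 11 windows covered all 9 genes. The motif was found in 1 of the 11, that of Socs3, and in 8.30% of 32851 such windows of all genes. The stricter TTCCNGGAA, a subset of the same motif, was in 0 of the 11 and in 1.15% of all windows. The Socs3 match TTCTTAGAA lies at bases -154 to -146 from the start. A match is a description of letters and not a binding site, and a missing match says only that the letters are not in the window. Printed 5' to 3' are the 250 bases before the start of Socs3 (chr11:117969367-117969616, minus strand), Pim3 (chr15:88861944-88862193, plus strand) and Socs1 (chr16:10785537-10785786, minus strand). Among the 9 genes, Pim3 had the levels that followed those of Socs3 most closely. Socs1 went the other way from Socs3 under 2i in wild-type cells. Capitals mark the motif.
Socs3: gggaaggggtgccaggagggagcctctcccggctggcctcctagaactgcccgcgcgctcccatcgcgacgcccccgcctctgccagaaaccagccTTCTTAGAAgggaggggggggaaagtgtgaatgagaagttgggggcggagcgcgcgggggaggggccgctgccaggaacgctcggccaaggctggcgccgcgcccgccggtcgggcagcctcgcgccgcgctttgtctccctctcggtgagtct
Pim3: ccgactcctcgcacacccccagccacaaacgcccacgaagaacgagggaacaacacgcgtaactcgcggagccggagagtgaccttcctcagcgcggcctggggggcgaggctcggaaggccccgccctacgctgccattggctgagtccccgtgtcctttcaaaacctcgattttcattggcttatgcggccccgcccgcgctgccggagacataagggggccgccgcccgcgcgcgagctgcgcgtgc
Socs1: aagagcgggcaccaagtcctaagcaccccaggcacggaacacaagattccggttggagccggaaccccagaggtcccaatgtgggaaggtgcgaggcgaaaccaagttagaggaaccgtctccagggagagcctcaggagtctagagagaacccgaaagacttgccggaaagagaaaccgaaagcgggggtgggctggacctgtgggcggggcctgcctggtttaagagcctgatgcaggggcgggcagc

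Of 59305 gene-directed spots, 49.8% to 66.3% were well above background on an array, and replicate arrays correlated at 0.988 or more. The number of arrays limits the precision. Nat1-null replicates varied more, with an SD of the difference between replicates of 0.483 to 0.581 (log2), against 0.254 to 0.313 in wild-type groups. Eif4g2 averaged 1.31 ± 0.10 in Nat1-null 2i+LIF cells, 1.28 ± 0.04 in Nat1-null LIF cells, 4.20 ± 0.10 in wild-type 2i+LIF cells and 4.49 ± 0.05 in wild-type LIF cells (SD, n = 3 each). That is 7.42-fold lower in Nat1-null cells in 2i+LIF and 9.28-fold lower in LIF. Wild-type LIF arrays were on slide 1, wild-type 2i+LIF arrays on slide 2 and all Nat1-null arrays on slide 3, so genotype, and medium in wild-type cells, cannot be told apart from slide. Only the medium comparison in Nat1-null cells lay within a slide. There, the third LIF array and all 3 2i+LIF arrays shared the lower row, with negative-control means of -16.4 to -10.2 against -9.89 to -6.45 on the arrays of the upper rows. Levels are log2 values with the 75th percentile of an array set to 0, differences are on the log2 scale, and a gene is called when its adjusted p from limma, over all genes tested, is below 0.05.

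In wild-type LIF cells 8 of the 9 genes were at their lowest level of the 4 groups, and Socs1 was at its highest. Loss of Nat1 in LIF came with higher RNA of 8 of the 9 genes and lower RNA of Socs1, 8 and 1 called, against 33.9% of all genes called higher and 32.9% called lower. By at least 2-fold, 5 of the 9 were higher (Socs3, Lifr, Pim3, Bcl3 and Stat3), against 9.89% of all genes. The median difference of the 9 genes was 1.04, against 0.02 over all genes.

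Adding 2i to wild-type cells came with 7 of the 9 genes called higher and 1, Socs1, called lower, against 35% and 27.2% of all genes. Jak1 was among the 7 and turned to -0.12 (not called) without scaling between arrays. Socs3, Bcl3 and Pim3 were higher by at least 2-fold, against 7.18% of all genes. The median difference was 0.86, against 0.06 over all genes. Leaving out the scaling moves every gene by -0.57 in this comparison, and Socs3 was then at 1.11, Bcl3 at 1.10, Pim3 at 0.66, Pim1 at 0.39, Lifr at 0.30 and Socs1 at -1.57, all still called.

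Loss of Nat1 in 2i+LIF came with smaller differences: 6 of the 9 were called higher and 0 lower, against 21% and 22.6% of all genes, and 3 genes (Il6st, Jak1 and Pim1) were not called. With the brightest probe of each gene, Socs3 (1.00) passed 2-fold, against 3.37% of all genes; the mean of the 3 Lifr probes (1.01) did so too. The median was 0.46, against -0.0051 over all genes. Adding 2i to Nat1-null cells had 2 of the 9 called higher (Bcl3 and Pim1) and 2 lower (Lifr and Pim3), against 21.4% and 15.8% of all genes, with a median of 0.05 both for the 9 and for all genes. These comparisons share groups, so their results are not independent of each other.

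**Figure D1:**
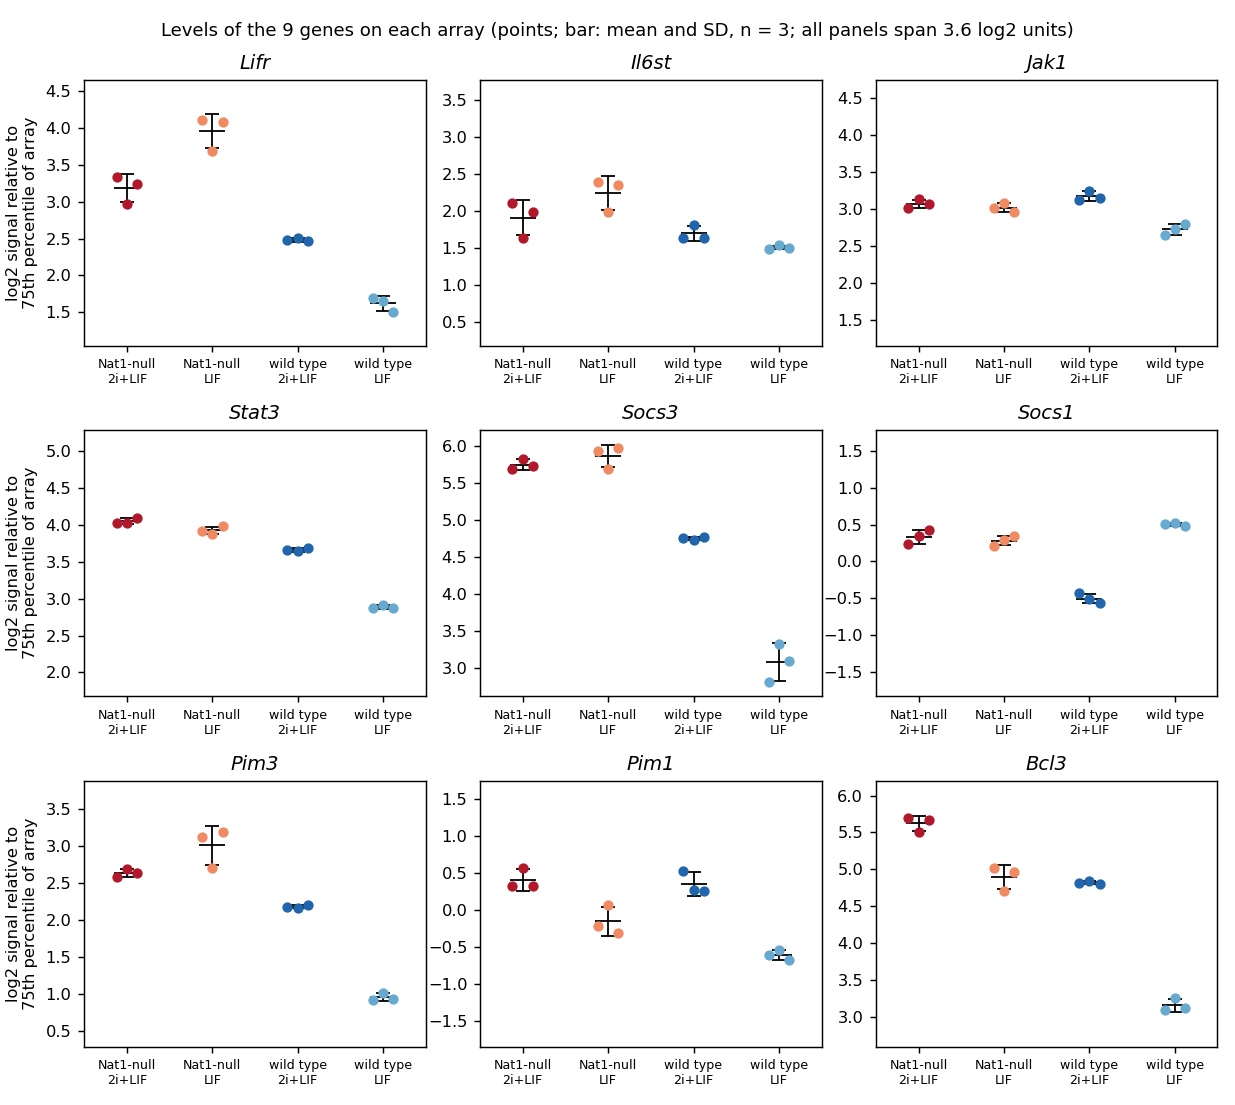
Level of each of the 9 genes on every array, as log2 values with the 75th percentile of an array set to 0, with the mean and SD of each group (n = 3) and groups in the order Nat1-null 2i+LIF, Nat1-null LIF, wild-type 2i+LIF, wild-type LIF. Wild-type LIF arrays lie below all others for Socs3, Stat3, Lifr, Jak1, Pim1, Pim3, Bcl3 and Il6st, and Socs1 is lowest in wild-type 2i+LIF.

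Lifr, the chain that binds LIF, read 3.33, 2.97 and 3.24 in Nat1-null 2i+LIF cells and 4.10, 3.69 and 4.08 in Nat1-null LIF cells. Wild-type arrays read 2.47, 2.51 and 2.47 in 2i+LIF and 1.70, 1.65 and 1.51 in LIF. No 2 groups overlapped, and the order ran from Nat1-null LIF through Nat1-null 2i+LIF and wild-type 2i+LIF down to wild-type LIF, with each step called. In LIF, Lifr was higher by 2.33 in Nat1-null cells (SE 0.12, adjusted p = 1.2e-07), a 5.04-fold difference. The genotype difference in 2i+LIF was 0.69 (SE 0.12, adjusted p = 0.0014), and it was 0.51 (adjusted p = 0.15) with the row of the array on its slide as a term. 2i came with a difference of 0.86 in wild-type cells (SE 0.12, adjusted p = 1.9e-04) and of -0.78 in Nat1-null cells (SE 0.12, adjusted p = 9.8e-04), so the gene rose in one genotype and fell in the other.

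The other two Lifr probes gave the same picture for genotype and a weaker one for 2i in wild-type cells. Probe A_51_P113182 was higher in Nat1-null cells by 1.97 in LIF and 1.00 in 2i+LIF (adjusted p over all probes 4.8e-08 and 2.1e-05). Probe A_55_P2159264, designed to another Lifr transcript, was higher by 2.05 and 1.34. Under 2i in wild-type cells these probes differed by 0.35 (adjusted p = 0.0067) and 0.13 (adjusted p = 0.54), and the mean of the 3 probes by 0.45 (adjusted p = 0.0059). In Nat1-null cells 2i came with -0.62 and -0.58, both called, so all 3 probes fell there.

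**Figure D2:**
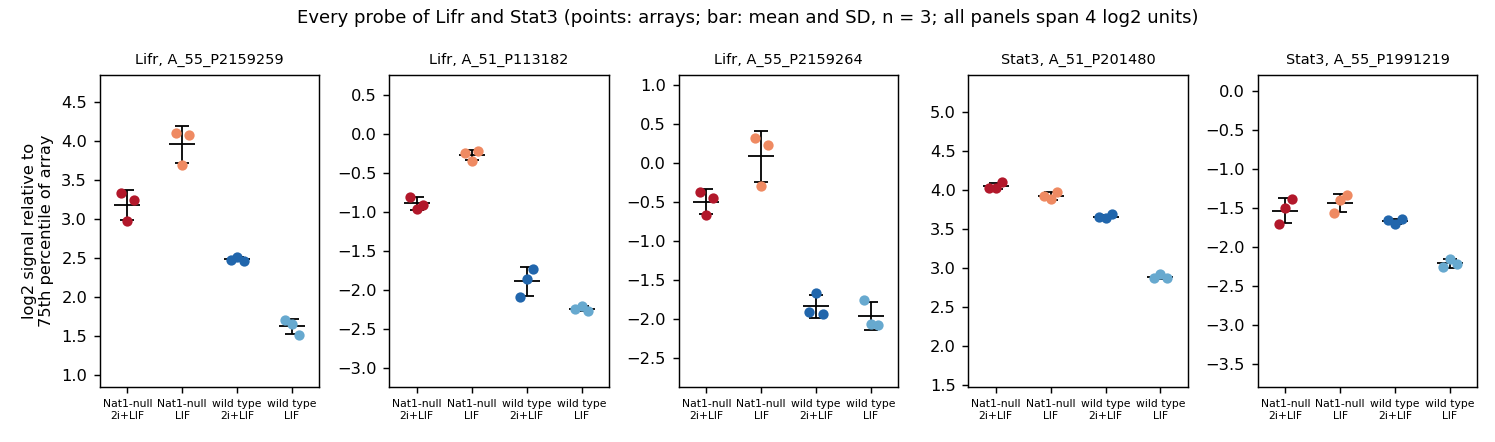
Every probe of Lifr and Stat3 on every array, as log2 values with the 75th percentile of an array set to 0, with mean and SD per group (n = 3) and all panels spanning the same number of log2 units. All 3 Lifr probes are higher in both Nat1-null groups than in both wild-type groups, and the wild-type 2i+LIF and LIF groups of probe A_55_P2159264 overlap.

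Il6st, which encodes the signal-transducing chain gp130 shared by the receptors of the IL-6 family, varied less. Its levels were 2.10, 1.64 and 1.98 in Nat1-null 2i+LIF cells and 2.39, 1.98 and 2.35 in Nat1-null LIF cells, and wild-type levels were 1.63, 1.81 and 1.64 in 2i+LIF and 1.49, 1.53 and 1.50 in LIF. The genotype difference in LIF was 0.73 (SE 0.13, adjusted p = 7.6e-04), with all Nat1-null arrays above all wild-type arrays. No step between neighbouring groups in the order of means was called. In 2i+LIF the genotype groups overlapped, at a difference of 0.21 (95% interval -0.09 to 0.51, adjusted p = 0.24), which reached 0.34 (adjusted p = 0.048) without the second Nat1-null 2i+LIF array. Adding 2i gave 0.19 in wild-type cells (95% interval -0.11 to 0.49, adjusted p = 0.24), which without scaling turned to -0.38 (adjusted p = 0.020). In Nat1-null cells 2i gave -0.33 (95% interval -0.63 to -0.03, adjusted p = 0.078), which was called without the second LIF array (-0.46) or the first 2i+LIF array (-0.43). The second array of each Nat1-null group was the lowest of its group for Lifr, Il6st and Bcl3, and had the lowest array weights, 0.346 in 2i+LIF and 0.177 in LIF.

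Jak1 encodes the main JAK family kinase of gp130 receptors. Its levels were 3.02, 3.13 and 3.07 in Nat1-null 2i+LIF cells, 3.01, 3.08 and 2.97 in Nat1-null LIF cells, 3.12, 3.25 and 3.16 in wild-type 2i+LIF cells, and 2.66, 2.73 and 2.80 in wild-type LIF cells. The wild-type LIF group stood below the other groups, whose neighbouring steps were not called. In wild-type cells 2i came with 0.45 (SE 0.06, adjusted p = 1.3e-04), which turned to -0.12 (adjusted p = 0.21) without scaling. Nat1 loss in LIF came with 0.29 (SE 0.06, adjusted p = 0.0018), which was 0.17 (adjusted p = 0.051) after normexp background correction and 0.14 (adjusted p = 0.16) without scaling. Neither the genotype difference in 2i+LIF (-0.10, 95% interval -0.24 to 0.03) nor the 2i difference in Nat1-null cells (0.05, 95% interval -0.08 to 0.19, or -0.14 without scaling) was called. The genotype difference in 2i+LIF was 0.12 without scaling (not called), and it was called lower after normexp (-0.23, adjusted p = 0.020) and quantile normalization (-0.19, adjusted p = 0.036).

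Stat3 itself, the transcription factor that LIF activates, read 4.02, 4.03 and 4.10 in Nat1-null 2i+LIF cells, 3.92, 3.88 and 3.98 in Nat1-null LIF cells, 3.65, 3.64 and 3.69 in wild-type 2i+LIF cells, and 2.87, 2.92 and 2.87 in wild-type LIF cells. No 2 groups overlapped. Its probe was spotted 10 times on an array, and these spots varied with an SD of only 0.023 to 0.053. Nat1-null cells had 1.04 more in LIF (SE 0.05, adjusted p = 4.8e-08), a 2.05-fold difference, and 0.39 more in 2i+LIF (SE 0.05, adjusted p = 1.3e-04), or 0.61 without scaling. 2i came with 0.77 in wild-type cells (SE 0.05, adjusted p = 6.6e-07), which was 0.20 without scaling (adjusted p = 0.020). In Nat1-null cells it came with 0.13 (95% interval 0.02 to 0.23, adjusted p = 0.065, or -0.068 without scaling). The other Stat3 probe, A_55_P1991219, differed by 0.78 for genotype in LIF and 0.54 for 2i in wild-type cells, both called. For genotype in 2i+LIF it gave 0.13 (adjusted p = 0.25), so the small Stat3 difference in 2i+LIF rested on 1 of 2 probes. For 2i in Nat1-null cells that probe gave -0.099 (adjusted p = 0.41), the opposite sign to the brighter probe, and neither was called.

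Socs3, the feedback inhibitor of gp130 signalling, had the largest genotype difference of the 9 genes in LIF. In 2i+LIF it had the largest by the brightest probe of each gene, though the mean of the Lifr probes was at 1.01 and Lifr probe A_55_P2159264 at 1.34. It read 5.70, 5.83 and 5.74 in Nat1-null 2i+LIF cells and 5.94, 5.70 and 5.97 in Nat1-null LIF cells. Wild-type arrays read 4.76, 4.73 and 4.77 in 2i+LIF and 2.82, 3.33 and 3.09 in LIF. The Nat1-null groups overlapped each other and lay above all wild-type arrays, and wild-type 2i+LIF lay between them and wild-type LIF. The genotype difference was 2.79 in LIF (SE 0.12, adjusted p = 3.3e-08), or 6.92-fold, and 1.00 in 2i+LIF (SE 0.12, adjusted p = 1.2e-04), or 2.00-fold. 2i came with 1.68 in wild-type cells (SE 0.12, adjusted p = 1.8e-06), or 3.19-fold, and with -0.12 in Nat1-null cells (95% interval -0.39 to 0.16, adjusted p = 0.49). The 3 calls held in all 23 alternative settings, with the LIF genotype difference between 2.64 and 2.92.

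Socs1, a relative of Socs3 that binds and inhibits JAK kinases, followed another pattern. Its levels were 0.24, 0.34 and 0.43 in Nat1-null 2i+LIF cells, 0.22, 0.29 and 0.34 in Nat1-null LIF cells, -0.43, -0.51 and -0.56 in wild-type 2i+LIF cells, and 0.51, 0.52 and 0.48 in wild-type LIF cells. The wild-type 2i+LIF arrays were below all others and the wild-type LIF arrays above all others. In wild-type cells Socs1 fell by 1.00 under 2i (SE 0.06, adjusted p = 7.0e-07), which is 2.01-fold lower. Against wild type, Nat1-null cells were higher by 0.84 in 2i+LIF (SE 0.06, adjusted p = 6.2e-06) and lower in LIF, at -0.22 (SE 0.06, adjusted p = 0.011), or -0.37 without scaling. The Nat1-null groups overlapped, at 0.05 (95% interval -0.09 to 0.19, adjusted p = 0.55), which was -0.14 without scaling.

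Pim3 and Pim1 encode related serine/threonine kinases that promote survival and growth, and both are known targets of STAT3. Pim3 read 2.59, 2.69 and 2.64 in Nat1-null 2i+LIF cells and 3.13, 2.71 and 3.19 in Nat1-null LIF cells. In wild-type cells it read 2.18, 2.16 and 2.20 in 2i+LIF and 0.92, 1.02 and 0.93 in LIF. The order was that of Lifr, with each step called. The genotype difference was 2.06 in LIF (SE 0.11, adjusted p = 1.2e-07), or 4.17-fold. In 2i+LIF it was 0.46 (SE 0.11, adjusted p = 0.0068), and 0.19 (adjusted p = 0.51) with slide row as a term. 2i came with 1.23 in wild-type cells (SE 0.11, adjusted p = 7.1e-06) and -0.37 in Nat1-null cells (SE 0.11, adjusted p = 0.023), or -0.56 without scaling. That last call ended when only the Nat1-null arrays, which share a slide, were fitted (adjusted p = 0.12), and without array 1 or 3 of either Nat1-null group (-0.28 to -0.37, adjusted p 0.054 to 0.080).

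Pim1 differed more by medium than by genotype in the scaled values. It read 0.32, 0.57 and 0.33 in Nat1-null 2i+LIF cells, -0.22, 0.07 and -0.31 in Nat1-null LIF cells, 0.53, 0.27 and 0.25 in wild-type 2i+LIF cells, and -0.62, -0.55 and -0.67 in wild-type LIF cells. Both 2i+LIF groups overlapped and lay above both LIF groups. 2i came with 0.96 in wild-type cells (SE 0.12, adjusted p = 6.2e-05) and 0.56 in Nat1-null cells (SE 0.12, adjusted p = 0.0047). Nat1 loss came with 0.46 in LIF (SE 0.12, adjusted p = 0.0059) and with 0.05 in 2i+LIF (95% interval -0.21 to 0.32), or -0.027 without the second Nat1-null 2i+LIF array. Without scaling the 2i difference was 0.36 in Nat1-null cells (adjusted p = 0.083) and 0.39 in wild-type cells (adjusted p = 0.035). The genotype difference was then 0.31 in LIF (adjusted p = 0.095) and 0.28 in 2i+LIF (adjusted p = 0.14), so medium and genotype differences were of nearly the same size.

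Bcl3, an atypical member of the IkB family and a known STAT3 target, was called higher in all 4 comparisons. It read 5.70, 5.50 and 5.67 in Nat1-null 2i+LIF cells, 5.02, 4.71 and 4.96 in Nat1-null LIF cells, 4.82, 4.84 and 4.81 in wild-type 2i+LIF cells, and 3.09, 3.26 and 3.12 in wild-type LIF cells. Nat1-null LIF and wild-type 2i+LIF arrays overlapped, at a difference of 0.07 (95% interval -0.13 to 0.27). Nat1 loss came with 1.74 in LIF (SE 0.09, adjusted p = 9.7e-08) and 0.80 in 2i+LIF (SE 0.09, adjusted p = 7.5e-05). 2i came with 1.67 in wild-type cells (SE 0.09, adjusted p = 2.8e-07) and 0.73 in Nat1-null cells (SE 0.09, adjusted p = 2.0e-04). These calls held in all 23 alternative settings.

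**Figure D3:**
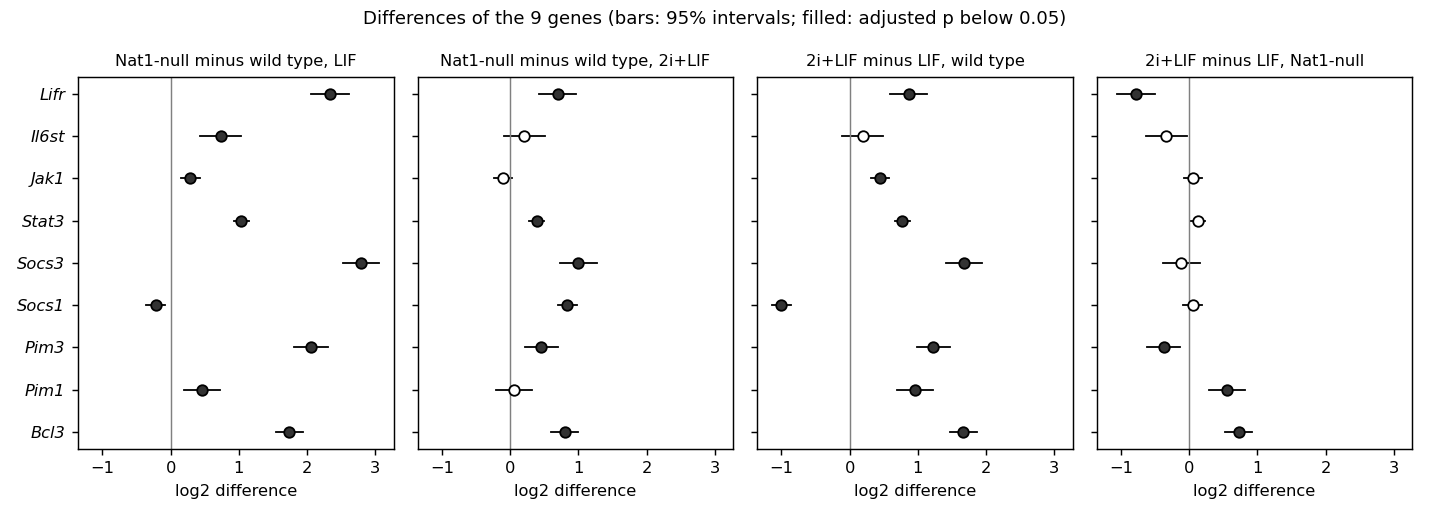
Log2 differences of the 9 genes in the 4 comparisons, with 95% intervals; filled points passed adjusted p below 0.05. Socs3, Lifr, Pim3 and Bcl3 have the largest genotype differences in LIF (1.74 to 2.79). Bcl3 and Pim1 are the genes called higher under 2i in Nat1-null cells, and Pim1 (0.36) is not called there without scaling. The small values of Il6st and Jak1 under 2i in wild-type cells change sign without scaling.

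Whether the 2i difference depended on genotype was tested as an interaction, the 2i difference in Nat1-null cells minus that in wild-type cells. It was called for 8 of the 9 genes, 7 lower and 1 higher, against 26.2% of all genes called lower and 23.6% called higher. By the brightest probe of each gene, Socs3 (-1.79), Lifr (-1.64) and Pim3 (-1.60) were lower by at least 2-fold, against 8.51% of all genes. Lifr probes A_51_P113182 and A_55_P2159264 gave -0.97 and -0.71 (adjusted p over all probes 1.6e-04 and 0.031), both called and both short of 2-fold. Bcl3 (-0.94), Stat3 (-0.65) and Jak1 (-0.39) were also lower, and Socs1 was higher at 1.06. Without scaling Bcl3 was at -0.57 and Stat3 at -0.27, both called, and Jak1 at -0.02 (adjusted p = 0.89). Il6st was at -0.52 (adjusted p = 0.043), and this call ended on leaving out any array but the second Nat1-null LIF or the first Nat1-null 2i+LIF array (adjusted p up to 0.095), and without scaling (-0.15). Pim1 was at -0.40 (95% interval -0.77 to -0.03, adjusted p = 0.068), and was called without the third Nat1-null LIF array (-0.48) or the second Nat1-null 2i+LIF array (-0.49). It was also called after normexp (-0.37, adjusted p = 0.0495), quantile normalization (-0.45, adjusted p = 0.046) and with array weights (-0.33, adjusted p = 0.045), and without scaling it was -0.03 (adjusted p = 0.92).

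**Figure D4:**
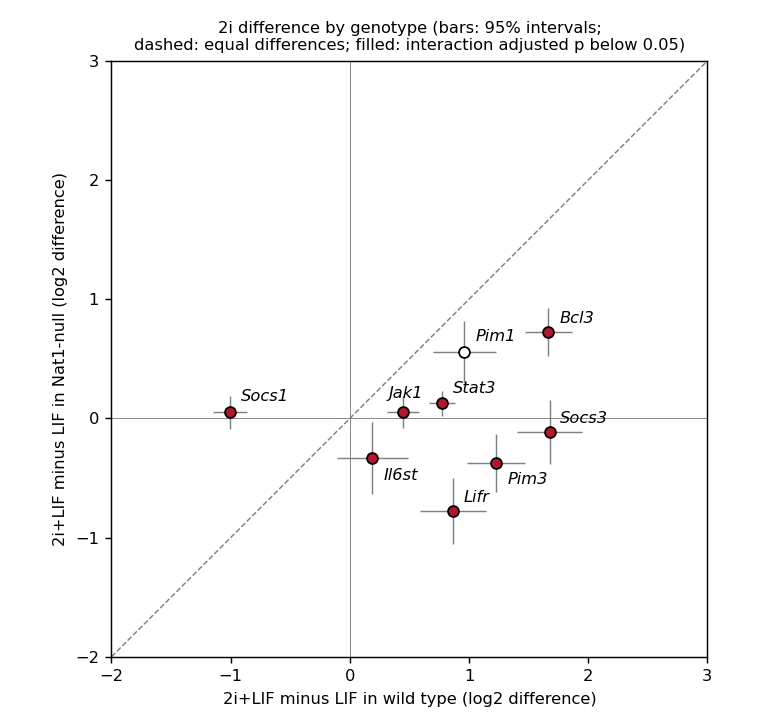
The 2i difference in Nat1-null cells (vertical axis) against that in wild-type cells (horizontal axis) for the 9 genes, in log2 units with 95% intervals; the dashed line marks equal differences, and filled points passed the interaction test. Every gene but Socs1 lies below the line; Bcl3 and Pim1 are the genes with positive and called differences on both axes. Both axes rest partly on scaling: without it Il6st and Jak1 change sign on the horizontal axis, and Socs1, Stat3 and Jak1 on the vertical axis.

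The rest of the pathway was described from 4 gene lists, and no list was tested as a set. For scale, the shares of all genes called higher and lower were 33.9% and 32.9% for genotype in LIF and 21% and 22.6% in 2i+LIF. For 2i the shares were 35% and 27.2% in wild-type cells, and 21.4% and 15.8% in Nat1-null cells. For the interaction they were 23.6% and 26.2%. Of 12 ligands and receptors of the IL-6 family, 10 were tested (Il6 and Clcf1 were not). Nat1 loss in LIF had 2 called higher and 6 lower, with a median of -0.37. The receptor chain Il11ra1 was higher by 0.95 and the IL-6 receptor Il6ra by 0.38 (called in the main values and at 0.23, adjusted p = 0.14, without scaling). The receptor for oncostatin M, Osmr, was well above background only in wild-type LIF cells and at least 2.61-fold lower in Nat1-null LIF cells, computed against the lowest spot well above background. The ligands Il11 and Lif were lower by 1.98 and 1.70 on the log2 scale in Nat1-null cells. Of 3 arrays each, Lif passed background on 1 with Nat1-null LIF cells and on 3 with wild-type LIF cells.

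In wild-type cells 2i had 1 of the 10 called higher, Il6ra (1.00), and 7 lower, among them Osmr (at least 2.66-fold), Cntfr, the receptor of ciliary neurotrophic factor (-2.03), and Lif (-1.24). Nat1 loss in 2i+LIF had 5 higher and 2 lower, led by Osm (2.56), Il6ra (2.05) and Cntf (1.18), with Il11 (-0.97) and Cntfr (-0.43) lower. Without scaling the split was 6 higher and 0 lower, with Il11 at -0.75 (adjusted p = 0.052) and Cntfr at -0.21 (adjusted p = 0.26). Il11 passed background on 1 of the 3 arrays of Nat1-null 2i+LIF cells. Osm passed background on all 3 arrays of Nat1-null 2i+LIF cells and on 2 of the 3 of wild-type 2i+LIF cells. In Nat1-null cells 2i had 4 higher and 2 lower, with Il6ra at 2.67, Cntf at 0.56, Cntfr at -1.93 and Il11ra1 at -1.47. Il6ra was thus called higher in all 4 comparisons. Its mean level was 2.05 in Nat1-null 2i+LIF cells, -0.62 in Nat1-null LIF cells, 0.00 in wild-type 2i+LIF cells and -1.0 in wild-type LIF cells. The interaction was called for 7 of the 10, with Osmr (3.56), Lif (1.79) and Il6ra (1.67) higher and Il11ra1 (-0.93) lower, and Osmr was at 0.54 (adjusted p = 0.055) after normexp background correction. Osmr was not well above background in 3 of the 4 groups, so its interaction value rests on signals near background.

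Of 13 other JAK, STAT and adaptor genes, 12 were tested. Nat1 loss had 8 higher and 2 lower in LIF and 9 higher and 2 lower in 2i+LIF, with medians of 0.67 and 0.52. The kinases Jak3 and Tyk2 were higher by 1.95 and 1.37 in LIF, and the transcription factor Stat6 by 1.46. In 2i+LIF, Stat5a was higher by 1.40, Jak3 by 1.14 and Stat6 by 0.96. The adaptor Gab1 was lower in both media (-0.60 in LIF and -0.55 in 2i+LIF). Stat4 was lower in 2i+LIF (-0.55), and the phosphatase Ptpn11 was lower in LIF (-0.23).

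Under 2i, 7 of these 12 were higher and 5 lower in wild-type cells, with Jak3 (1.40), Stat2 (1.32) and Stat5b (0.69) rising and Stat4 (-1.43), Ptpn11 (-0.43) and Jak2 (-0.41) falling. Without scaling that split was 2 higher and 7 lower, and Stat5b (0.13) was not called. In Nat1-null cells 5 were higher and 2 lower, led by Jak3 (0.59) and, lower, by Stat4 (-1.75) and Stat6 (-0.23). Without scaling the split was 1 and 3, and Stat2 (0.45) and Shc1 (0.34) lost their calls at 0.25 and 0.15. The interaction was called for 3 higher (Stat5a 0.63, Ptpn11 0.59 and Jak2 0.56) and 4 lower, among them Stat2 (-0.88), Jak3 (-0.81) and Stat6 (-0.50). Without scaling 5 were higher and 1 lower, and Jak3 and Stat6 were not called.

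Of 13 further negative regulators of the pathway, 12 were tested (Pias3 was not). Nat1 loss had 8 higher and 1 lower in LIF and 7 higher and 1 lower in 2i+LIF, with medians of 0.33 and 0.28. The SOCS family members Cish (1.04), Socs4 (0.95) and Socs7 (0.76) led in LIF, and the phosphatase Ptpn6 (0.77), Socs4 (0.56) and Socs7 (0.55) in 2i+LIF. Pias2, of the PIAS family of STAT inhibitors, was the lower gene in both media (-0.27 in LIF and -0.58 in 2i+LIF). In wild-type cells 2i had 3 higher (Pias4 0.44, Socs4 0.41 and Pias2 0.27) and 2 lower (the phosphatase Ptpn1 -1.27 and Socs6 -0.37), and without scaling 0 higher and 9 lower, with Pias4, Socs4 and Pias2 turning to -0.13, -0.15 and -0.29. In Nat1-null cells it had 2 higher (Ptpn6 0.71 and Ptpn2 0.59) and 3 lower (Ptpn1 -0.87, Cish -0.73 and Socs2 -0.63). The interaction was called for 3 higher (Ptpn6 0.56, Ptpn2 0.39 and Socs6 0.36) and 4 lower (among them Cish -0.87, Socs2 -0.52 and Pias4 -0.44), and without scaling for 5 higher and 1 lower, with Socs2 and Pias4 not called.

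All 19 other STAT3 and LIF target genes on the list were tested, and they did not move one way. Nat1 loss in LIF had 9 higher and 7 lower. The chromatin remodelling subunit gene Smarcd3 (4.36) and the transcription factor genes Tfcp2l1 (3.05) and Klf4 (3.00) were higher. Pramel7, which was not well above background on any Nat1-null LIF array, was at least 42.4-fold lower, and Gadd45g and the transcription factor gene Cebpd were lower by 4.98 and 2.21 on the log2 scale. In 2i+LIF, Nat1 loss had 14 higher and 1 lower, with Myc (1.56, or 0.89 and adjusted p = 0.078 after normexp), Gbx2 (1.17) and Klf5 (1.10) higher and Cebpd (-0.41) lower. Without scaling Cebpd was at -0.19 (adjusted p = 0.14), which left 14 higher and 0 lower.

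In wild-type cells 2i had 7 of these targets higher and 9 lower, and without scaling 4 and 11. Tfcp2l1 (3.90), Smarcd3 (2.83) and Klf4 (1.95) led the higher genes, and Pramel7 (-4.78), Gadd45g (-3.86) and Myc (-3.62) the lower genes. Pramel7 passed background on 2 of the 3 wild-type 2i+LIF arrays, so its value there rests partly on signals near background. In Nat1-null cells 2i had 5 higher and 5 lower, and without scaling 4 and 8. There Pramel7 (at least 3.17-fold), Gadd45g (1.63) and Tfcp2l1 (1.58) were higher, and Gbx2 (-1.25), Junb (-1.12) and Smarcd3 (-1.10) were lower. The interaction was called for 9 higher, led by Pramel7 (7.19), Gadd45g (5.49) and Rgs16 (3.24), and 5 lower, led by Smarcd3 (-3.94), Tfcp2l1 (-2.32) and Klf4 (-2.13). The Pramel7 value is from a fit that includes the Nat1-null LIF arrays, where Pramel7 was not well above background. Rgs16 had an SE of 1.17 (adjusted p = 0.042) and passed background on 2 of the 3 Nat1-null 2i+LIF arrays. Smarcd3, Tfcp2l1 and Klf4 had the same signs as Socs3, Pim3 and Bcl3 for genotype in LIF, for 2i in wild-type cells and for the interaction. They were named for their large values in those comparisons, which share the wild-type LIF group, so the shared signs follow from the choice. Pramel7 and Gadd45g, named by the same rule, had the opposite signs in each of them.

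**Figure D5:**
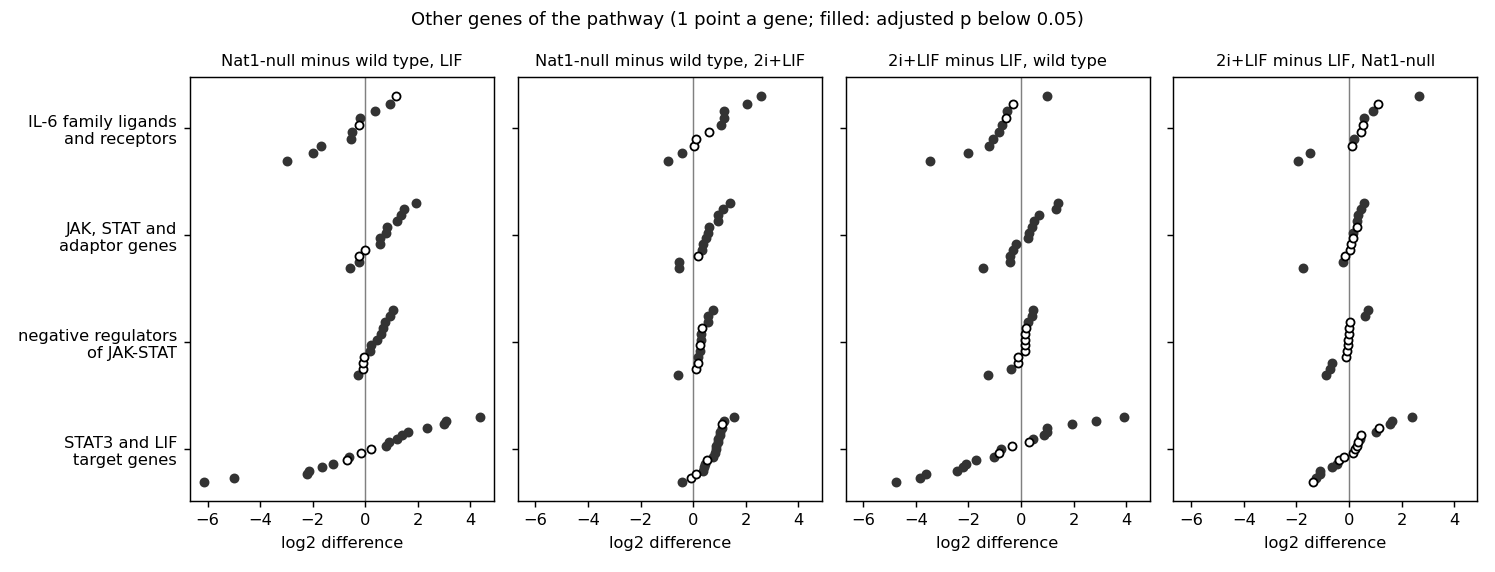
Log2 differences of the other genes of the pathway in the 4 comparisons, 1 point a gene and 1 row a list, with filled points at adjusted p below 0.05. The targets of STAT3 and LIF spread widely in LIF and in wild-type cells (for genotype in LIF from Pramel7, plotted at its measured -6.15 but known only as at least 42.4-fold lower, to Smarcd3 at 4.36) and are mostly higher in Nat1-null cells in 2i+LIF (14 of 19 called). Without scaling all points shift together, by -0.57 under 2i in wild-type cells, -0.19 under 2i in Nat1-null cells, -0.15 for genotype in LIF and 0.22 for genotype in 2i+LIF, which turns the sign of smaller values.

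Markers of other cells moved with the same contrasts. The shares of all genes printed above for the pathway lists are the scale for the marker counts too. In bulk RNA, fewer cells of a type and less RNA per cell cannot be told apart. All 10 embryonic stem cell markers were well above background on every array, and their summed linear level (in units of the 75th percentile) was 874 to 965 in Nat1-null 2i+LIF cells, 887 to 1034 in Nat1-null LIF cells, 891 to 973 in wild-type 2i+LIF cells and 527 to 549 in wild-type LIF cells. For genotype in LIF all 10 were called higher, from Dppa5a (0.27) to Tdgf1 (2.68). Under 2i in wild-type cells 7 were higher and 1 lower, from Utf1 (-1.33) to Esrrb (2.30). For genotype in 2i+LIF 3 were higher and 1 lower, from Nanog (-0.42) to Utf1 (1.05), and in Nat1-null cells 2i had 2 higher and 5 lower, from Utf1 (-1.04) to Dppa5a (0.24). For the interaction 9 were lower, led by Esrrb (-2.51).

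The summed level of 18 fibroblast and feeder markers was 194 to 206 in Nat1-null 2i+LIF cells, 121 to 139 in Nat1-null LIF cells, 167 to 177 in wild-type 2i+LIF cells and 409 to 434 in wild-type LIF cells. Of 17 tested (Lum was not), 14 were lower and 1 higher for genotype in LIF, from Acta2 (-9.62) to Fn1 (0.89). Under 2i in wild-type cells 12 were lower and 2 higher, from Acta2 (-8.06) to Pdgfrb (2.04). Col6a1, Postn and Lum were not well above background on any array of the 3 groups other than wild-type LIF, where Lum was not either. Pdgfra and Dcn were likewise not above background in Nat1-null 2i+LIF cells, nor Dcn in Nat1-null LIF cells. In 2i+LIF the genotype difference had 4 higher and 6 lower, from Col1a2 (-1.86) to Col3a1 (1.18). Col3a1 passed background on 2 of the 3 Nat1-null 2i+LIF arrays and on 1 of the 3 wild-type 2i+LIF arrays. Col1a2 passed on 2 of the 3 Nat1-null 2i+LIF arrays and on all 3 wild-type 2i+LIF arrays. In Nat1-null cells 2i had 6 higher and 3 lower, from Pdgfra (at least 1.31-fold lower) to Pdgfrb (2.55). Pdgfra was not well above background in Nat1-null 2i+LIF cells. The interaction had 12 higher and 2 lower, with Acta2 the highest (9.33).

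Trophoblast markers summed to 31.2 to 31.8 in Nat1-null 2i+LIF cells, 10.9 to 12.5 in Nat1-null LIF cells, 23.6 to 26.0 in wild-type 2i+LIF cells and 177 to 202 in wild-type LIF cells. Of 6 tested (Cdx2 and Elf5 were not), all 6 were lower for genotype in LIF, from Krt18 (-5.25) to Ascl2 (-0.70), and 5 were lower and 1 higher under 2i in wild-type cells, from Krt18 (-5.89) to Tfap2c (0.45). Primitive endoderm markers summed to 24.7 to 38.3 in Nat1-null 2i+LIF cells, 33.4 to 44.3 in Nat1-null LIF cells, 19.6 to 20.8 in wild-type 2i+LIF cells and 17.4 to 19.4 in wild-type LIF cells. Of these 8, 3 were higher and 4 lower for genotype in LIF, from Dab2 (-3.36) to Gata6 (2.77), and 2 were higher and 5 lower under 2i in wild-type cells, from Dab2 (-2.94) to Gata4 (1.49). For genotype in 2i+LIF, 3 endoderm markers were higher and 3 lower, and 4 trophoblast markers were higher and 1 lower. In Nat1-null cells 2i had 2 endoderm markers higher and 4 lower, and 5 trophoblast markers higher and 0 lower. Wild-type LIF cells, in which 8 of the 9 LIF pathway genes were lowest, thus also had the lowest stem cell sum and the highest fibroblast and trophoblast sums. Their primitive endoderm sum was the lowest too, but the single endoderm markers did not all follow it. Against wild-type LIF cells, 2 were called higher and 5 lower in wild-type 2i+LIF, and 3 higher and 4 lower in each Nat1-null group. Only in wild-type LIF cells were all 8 well above background on all 3 arrays. The part of the cell type markers in the results of the 9 genes was not tested.

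Across the 12 arrays Socs3 followed Pim3 (r = 0.985), Stat3 (0.982), Lifr (0.930) and Bcl3 (0.927) closely and Socs1 not (-0.145). Jak1 and Socs1 ran against each other (-0.718). These correlations describe 4 groups of 3 arrays rather than independent conditions. Of 12541 named genes bright on all arrays, the 5 most like Socs3 were the long noncoding RNA Norad (r = 0.996), Repin1, Atg14, Padi2 and Slc52a3 (each 0.993). The 3 most like each other gene were Hsd17b14, Tsr2 and Zfp352 for Lifr (0.994 to 0.995), Cdsn, Etl4 and Map2k3os for Il6st (0.976 to 0.981), and Gpx4, Dis3l2 and Bub1 for Jak1 (0.973 to 0.976). For Stat3 they were Pdcd7, Snx18 and 4930579G24Rik (0.996 to 0.997), for Pim3 Esyt1, Plcb3 and Atp2a3 (0.993 to 0.997), for Pim1 Stam, Slc25a42 and Mpzl1 (0.981 to 0.991), and for Bcl3 Kdm3b, Aaas and Mtmr12 (0.994 to 0.998). Socs1 was most like Ctf1, the IL-6 family ligand cardiotrophin 1 (0.980), Abcb9 (0.978) and Nars (0.970). Ctf1 averaged 0.01 in Nat1-null 2i+LIF cells, -0.18 in Nat1-null LIF cells, -1.04 in wild-type 2i+LIF cells and 0.04 in wild-type LIF cells, so it too was lowest in wild-type 2i+LIF.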

How the data were processed

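Total RNA of 12 samples was hybridised to 1-colour Agilent arrays, 3 per combination of genotype and medium. Per the file headers, the authors' scanner files hold intensity values from Agilent Feature Extraction 10.7.3.1, already background-subtracted and not scaled between arrays. As deposited, the series table gives log2 values set against the 75th percentile of each array, and it correlated at 1 with the scanner values on each array, so scanner values were used and the table was an alternative. Centring and direction of that table were taken from this match.

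Control spots and outlier spots were left out, spots of a probe were averaged on the log2 scale, and each array was shifted to put its 75th percentile at 0. Probes were named through RefSeq accessions (27656 of 55681, and 98.7% of those to curated mRNAs). A probe was kept (33286 were) where every array of some group had it well above background, with 1 probe, the brightest by mean, per gene (24457 genes, 15422 with a symbol). limma 3.58.1 in R 4.3.3 fitted 4 group means on all 12 arrays, with two-sided p-values adjusted by Benjamini-Hochberg across the genes tested. The fit was checked on simulated data. Figures were drawn with Python 3.11.15 and matplotlib 3.10.9.

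The 9 genes and the lists were chosen with earlier results of these data known. The genes named are the 9, Eif4g2, up to 3 called genes per pathway list, direction and comparison, the extremes of each marker list, and the genes most alike by Pearson correlation (5 for Socs3 and 3 for each other gene). Some genes that this rule names are not reported here. The labels do not say whether replicates were separate cultures, so the p-values cover only variation among these arrays, which may be technical. Same-numbered arrays gave residual correlations over 0.1 in 1 of 18 pairs (lowest -0.069, highest 0.301). The highest was between the second arrays of the Nat1-null groups, and Nat1-null arrays of unlike number reached 0.178. Such values cannot settle whether the numbers pair the samples, so the main fit used no pairing and a replicate block was an alternative. The normexp alternative (offset 50) used median spot signals with median backgrounds.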

Additional observations from a re-analysis of the deposited data

Results flagged for a closer look

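The difference made by 2i was not the same in both genotypes for 8 of the 9 genes, by limma's test of the interaction over all 24457 genes, of which 26.2% were called lower and 23.6% higher. Values are the log2 difference for 2i in Nat1-null cells minus that in wild-type cells. The feedback inhibitor Socs3 had -1.79 (adjusted p = 2.1e-05), with a 2i difference of -0.12 in Nat1-null cells and 1.68 in wild-type cells. The receptor chain Lifr had -1.64 (adjusted p = 4.4e-05) by its brightest probe. Its 2i differences by that probe, -0.78 in Nat1-null cells and 0.86 in wild-type cells, had opposite signs and were both called. Lifr probes A_51_P113182 and A_55_P2159264 gave smaller interactions, -0.97 and -0.71. Their 2i differences in wild-type cells were 0.35 (called) and 0.13 (not called). Pim3 had -1.60 (adjusted p = 2.2e-05), also with opposite signs, but its 2i difference in Nat1-null cells (-0.37) lost its call in 5 of 23 alternatives. Socs1 had 1.06 (adjusted p = 9.2e-06), from 0.05 in Nat1-null cells and -1.0 in wild-type cells. Bcl3 had -0.94 (adjusted p = 1.9e-04), from 0.73 in Nat1-null cells and 1.67 in wild-type cells. Stat3 had -0.65 (adjusted p = 3.8e-05), Jak1 -0.39 (adjusted p = 0.0037, or -0.02 and not called without scaling) and Il6st -0.52 (adjusted p = 0.043, a call lost in 13 of 22 alternatives). In wild-type cells the media lay on different slides and in Nat1-null cells on the same slide, so the interaction cannot be told apart from slide.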

How the results depend on the processing

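Over 23 alternatives (22 for the interaction), the number of the 9 genes called ranged from 7 to 9 for genotype in LIF, 8 to 9 for 2i in wild-type cells, 4 to 7 for genotype in 2i+LIF, 3 to 6 for 2i in Nat1-null cells and 6 to 9 for the interaction. In the main values 16345, 15223, 10664, 9077 and 12163 of all 24457 genes were called in the same order. Of 1026 values of single genes, 974 kept direction and call, 25 lost the call, 18 gained one and 9 changed sign. Without scaling between arrays, all differences shifted, which turned the sign of Il6st (-0.38) and Jak1 (-0.12) for 2i in wild-type cells, of Jak1 (0.12) for genotype in 2i+LIF, and of Socs1 (-0.14), Stat3 (-0.068) and Jak1 (-0.14) for 2i in Nat1-null cells. The other changes of sign, all in values not called, were Jak1 (-0.00060) under normexp and Socs1 (-0.0095) with slide row as a term, both for 2i in Nat1-null cells, and Pim1 for genotype in 2i+LIF without the second Nat1-null 2i+LIF array (-0.027, with a range up to 0.145 over the arrays left out in turn). The median of all genes without scaling was -0.14 for genotype in LIF, -0.50 for 2i in wild-type cells, 0.22 for genotype in 2i+LIF, -0.14 for 2i in Nat1-null cells and 0.34 for the interaction. The share of calls over all genes that were higher was then 39.3%, 12.8%, 75.9%, 22.1% and 78.5% in the same order, against 50.7%, 56.3%, 48.1%, 57.5% and 47.4% with scaling. Counts over all genes moved by more than 1.5 times for 2i in Nat1-null cells with only the compared arrays fitted (4845 against 9077) and for genotype in 2i+LIF with slide row as a term, chosen after seeing the data (4795 against 10664). With the replicate block, 9, 8, 6, 4 and 8 of the 9 genes were called in the order above, and no call of these 9 changed. Over all genes, 16225, 15143, 10457, 8787 and 11988 were called with that block. A random slide block was not run, since slide is fixed by the group means. Probes near background are limited by the signal.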
